A study of Mus musculus with 6 samples.

Results

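The genes described here encode the proteins of the cytosolic ribosome, the particle of a small and a large subunit that translates messenger RNA. They were chosen by name, as protein-coding genes with a symbol of the Rpl, Rps, Rplp or Rpsa form, and S6 kinase genes were left out. The rule found 80 genes among the 55471 in the count tables, 49 of the large subunit and 31 of the small, and 76 of them (45 and 31) had enough counts to be tested. RNA was sequenced from liver of male wild-type C57BL/6J mice, a common inbred strain, from 3 animals fasted for 16 h and 3 fasted for 4 h. The labels give no other treatment, no age and no altered gene. The series as a whole concerns cholesterol transport in liver cells, and the labels do not link it to ribosomes.

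Ribosomal proteins are made in matched amounts, because each ribosome holds 1 copy of nearly every one, and cells that grow spend much of their RNA and protein synthesis on them. Their messenger RNAs belong to the terminal oligopyrimidine (TOP) class, which starts with a C followed by a run of C and T (U in the RNA). When nutrients and insulin are plentiful, the kinase complex mTORC1 lets these messengers be translated, and when it is low the protein Larp1 binds their start, stops translation and shields them from decay. Liver loses protein and ribosomes during fasting. Counts of messenger RNA, as measured here, do not show how much of it is translated.

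Sequence near the annotated gene start is shown for a selection of members, to let a run of C and T like that of TOP messengers be seen. RefSeq windows of build GRCm38.p6, from 250 bases before to 50 after the annotated start, were found for 60 of the 80 members. The 30 bases below are on the sense strand, 5′ to 3′, and the capitals mark the run of C and T from its first C. Rpl35a, Rpl26, Rpl27a, Rps12 and Rps27l passed the test, while Rps27, the paralogue of Rps27l, and Rps6 and Rps7 did not. With the annotated start counted as base 0, the marked run began at 8 in Rps12, 22 in Rps7, 23 in Rpl26, -1 in Rps6, -2 in Rps27, -4 in Rpl27a and -12 in Rps27l. Of the other members that passed, Rpl12 and Rpl39 had runs that began at 39 and 36 and are not shown. Rplp1 had no RefSeq window. Rpl35a has a pair of annotated starts, which put its run at 24 or -5. The run of Rps27l thus ends before the annotated start, and none of the runs was shown to be the first bases of a messenger.
Rpl35a (chr16:33056469-33056498, plus strand): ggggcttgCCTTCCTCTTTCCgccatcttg
Rpl26 (chr11:68901581-68901610, plus strand): gtgtagttCTCTTTCCTTTTgcggccatcg
Rpl27a (chr7:109519183-109519212, plus strand): ttcgtgagCTCCTCCCTTTTCCCTTTCTgc
Rps12 (chr10:23787180-23787209, minus strand): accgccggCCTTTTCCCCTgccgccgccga
Rps27l (chr9:66946066-66946095, plus strand): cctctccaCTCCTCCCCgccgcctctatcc
Rps27 (chr3:90213629-90213658, minus strand): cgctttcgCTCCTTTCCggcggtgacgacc
Rps6 (chr4:86857347-86857376, minus strand): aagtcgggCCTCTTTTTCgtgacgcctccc
Rps7 (chr12:28635910-28635939, minus strand): tgtccccaCCTCTTTTCTTCCgccacccgg

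A C heading at least 8 consecutive C or T bases, on the sense strand and between 20 bases before and 50 after the start, was present in 49 of 72 member windows (68.1%), which came from 47 of the 60 members. The same run was present in 20.03% of all 32851 RefSeq windows. The letters CTTTCC, which hold only C and T and so can lie inside such a run, were found in the same stretch of 26.4% of member windows and 3.24% of all windows. On either strand of the whole window, CCGGAAG was present in 36.1% of member windows and 8.86% of all, and TATAAA in 8.33% and 13.6%. CCGGAAG on the other strand reads CTTCCGG, whose pyrimidines can form part of a run. Some genes have more than 1 window, so windows are not independent. The annotated start may lie some bases from the true one, and a match of letters is a description only.

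Libraries held 15173653 to 26572532 counts assigned to genes, between 19583 and 21980 genes had at least 1 count, and the 8 hepatocyte markers, all with counts, summed to 85978 to 97927 CPM after 16 h and 88585 to 95756 CPM after 4 h. The library of 4 h replicate 3 stood apart in the members and in other genes. Lung epithelial genes, which liver should lack, summed to 187 CPM (counts scaled to library size) there and to 5.54 to 8.79 CPM in the other 5, neutrophil genes to 17.6 CPM against 2.44 to 5.54, and Kupffer cell and macrophage genes to 169.9 CPM against 94.1 to 131. All 8 lung, 10 neutrophil and 7 macrophage markers had counts in the series. Reads that hit more than 1 gene made up 6.59% of its tally, against 5.78% to 5.99%. Of the 11 marker lists, only red cell genes had summed levels that did not overlap between the fasts, 52.3 to 97.0 CPM after 16 h and 145 to 171 CPM after 4 h, with counts for all 5 genes. Gene by gene, 4 of 8 hepatocyte markers rose and 1 (Ttr) fell, and falls were called in 2 of 6 stellate cell markers (Col1a1, -1.46, and Col3a1, -1.70 on the log2 scale), 1 macrophage marker (Timd4, -0.85) and 1 red cell marker (Alas2, -1.09). Their part in the results below was not tested. Values without 4 h replicate 3 therefore stand beside the results. In tissue RNA, fewer cells of a type and less RNA per cell cannot be told apart.

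The summed level of the ribosomal protein genes was 12069, 12374 and 11977 CPM in 16 h replicates 1, 2 and 3, against 13795, 13426 and 17516 CPM in 4 h replicates 1, 2 and 3. These are shares of all gene counts, 1.21% ± 0.0208 after 16 h and 1.49% ± 0.226 after 4 h (SD, n = 3 each). Every 16 h library lay below every 4 h library, and 4 h replicate 3 was well above the other 2. The 16 h to 4 h ratio of the means was 0.814, and 0.892 without that library. Large-subunit genes supplied 58.9% to 59.9% of the summed counts after 16 h and 58.6% to 59.7% after 4 h, so the balance of the subunits differed little between libraries. Relative to the other 4 h libraries, the median member of 4 h replicate 3 was 0.47 higher on the log2 scale, and it was above both of them in 75 of 76 members. It was the highest of all 6 libraries in 74 of the 76, the exceptions being Rpl23a and Rpl5. In 4 h replicate 3 all 76 lay above their mean over the 6 libraries, as the plot of members by library shows.

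**Figure D1:**
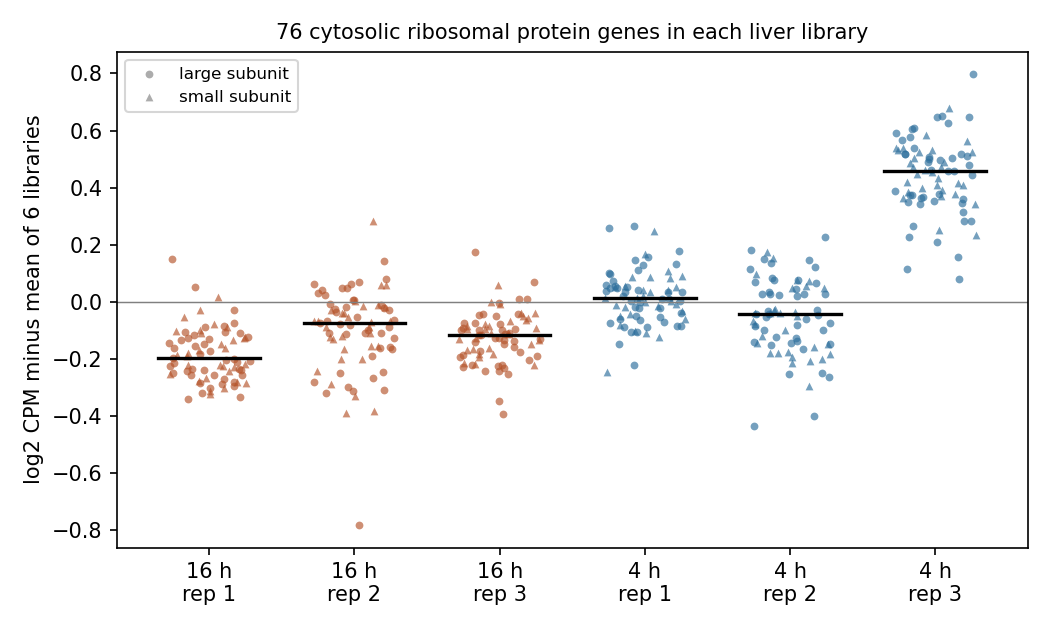
Each point is 1 of 76 ribosomal protein genes in 1 library, as log2 CPM (scaled library sizes) minus its mean over the 6 libraries, with the black bar at the median. Libraries of the 16 h fast (orange) are left of those of the 4 h fast (blue), and all 76 genes lie above 0 in 4 h replicate 3.

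Tested gene by gene, 8 of the 76 members fell after the 16 h fast, none rose and 68 did not pass (edgeR quasi-likelihood test, Benjamini-Hochberg adjustment over 13812 genes, threshold 0.05). That is 10.5% of the members tested, beside 9.51% of all genes tested that were called lower, 9.18% called higher and 18.7% called in either direction. The share of members called is near that of all genes and is not a result about ribosomal proteins. The folds of the called genes were 0.679 to 0.754. By subunit, 6 of 45 large and 2 of 31 small members fell. At an unadjusted p under 0.05, 33 of the 76 members were lower and 0 higher, beside 2392 and 2239 of all 13812 genes (17.3% and 16.2%). DESeq2 called 17 of the 76 lower, among them the same 8, and 0 higher. Of the 13003 genes to which it gave an adjusted p, it called 1351 lower and 1391 higher (10.4% and 10.7%).

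Direction and overlap are given as a description. The members had a median log2 change of -0.30 (large subunit -0.31, small subunit -0.30), beside -0.03 over all genes tested, and 73 of 76 (96.1%) were below 0, beside 53.2% of all genes. All 3 of the 16 h values were below all 3 of the 4 h values in 33 members (43.4%), and above them in 0, beside 19.7% of all genes in each direction. The 95% interval of the change excluded a halving in 75 of 76 members, Rpl35 being the exception. Without 4 h replicate 3, 7 members fell (9.21%, beside 9.73% of all 14312 genes tested in that fit) and 0 rose (beside 11.1%), the median was -0.11 beside -0.0026 for all genes, and 60 of 76 (78.9%) were below 0, beside 50.2% of all genes. In that fit 33 of the 76 members (43.4%) did not overlap with 16 h lower, beside 25.8% of all genes. With 16 h higher it was 5 of the 76, beside 3537 of all 14312 genes (24.7%). Every one of the 7 was among the 8, and Rpl27a was lost (edgeR adjusted p = 0.0556). Offsets for exon length and GC content, fitted on genes that are no members, gave a median of -0.14. With them 7 of the 76 members were lower, 5 of them among the 8, and 0 higher, beside 11% and 10.1% of all genes. More members were above 0 with these offsets than in the main fit.

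Calls were lost when single libraries were left out, which also leaves fewer samples. Left out in turn, 16 h replicates 1, 2 and 3 left 0, 1 and 0 members called lower, beside 5.85%, 4.98% and 4.94% of all genes, with lost calls at edgeR adjusted p of 0.0529 to 0.172, 0.0512 to 0.114 and 0.0658 to 0.156. Without 4 h replicate 1 or 2 the counts were 12 and 18, beside 7.42% and 7.81% of all genes, and Rps27l and Rpl39 lost their calls in the first of these fits (edgeR adjusted p = 0.0587 and 0.0562) and Rpl27a in the second (0.0765). No member was called higher in any of these 5 fits, beside 5.82%, 4.74% and 4.77% of all genes without 16 h replicates 1, 2 and 3, and 7.4% and 8.19% without 4 h replicates 1 and 2. No called member kept its call in all 6 such fits, and Rpl12 kept it in 4, the most.

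**Figure D2:**
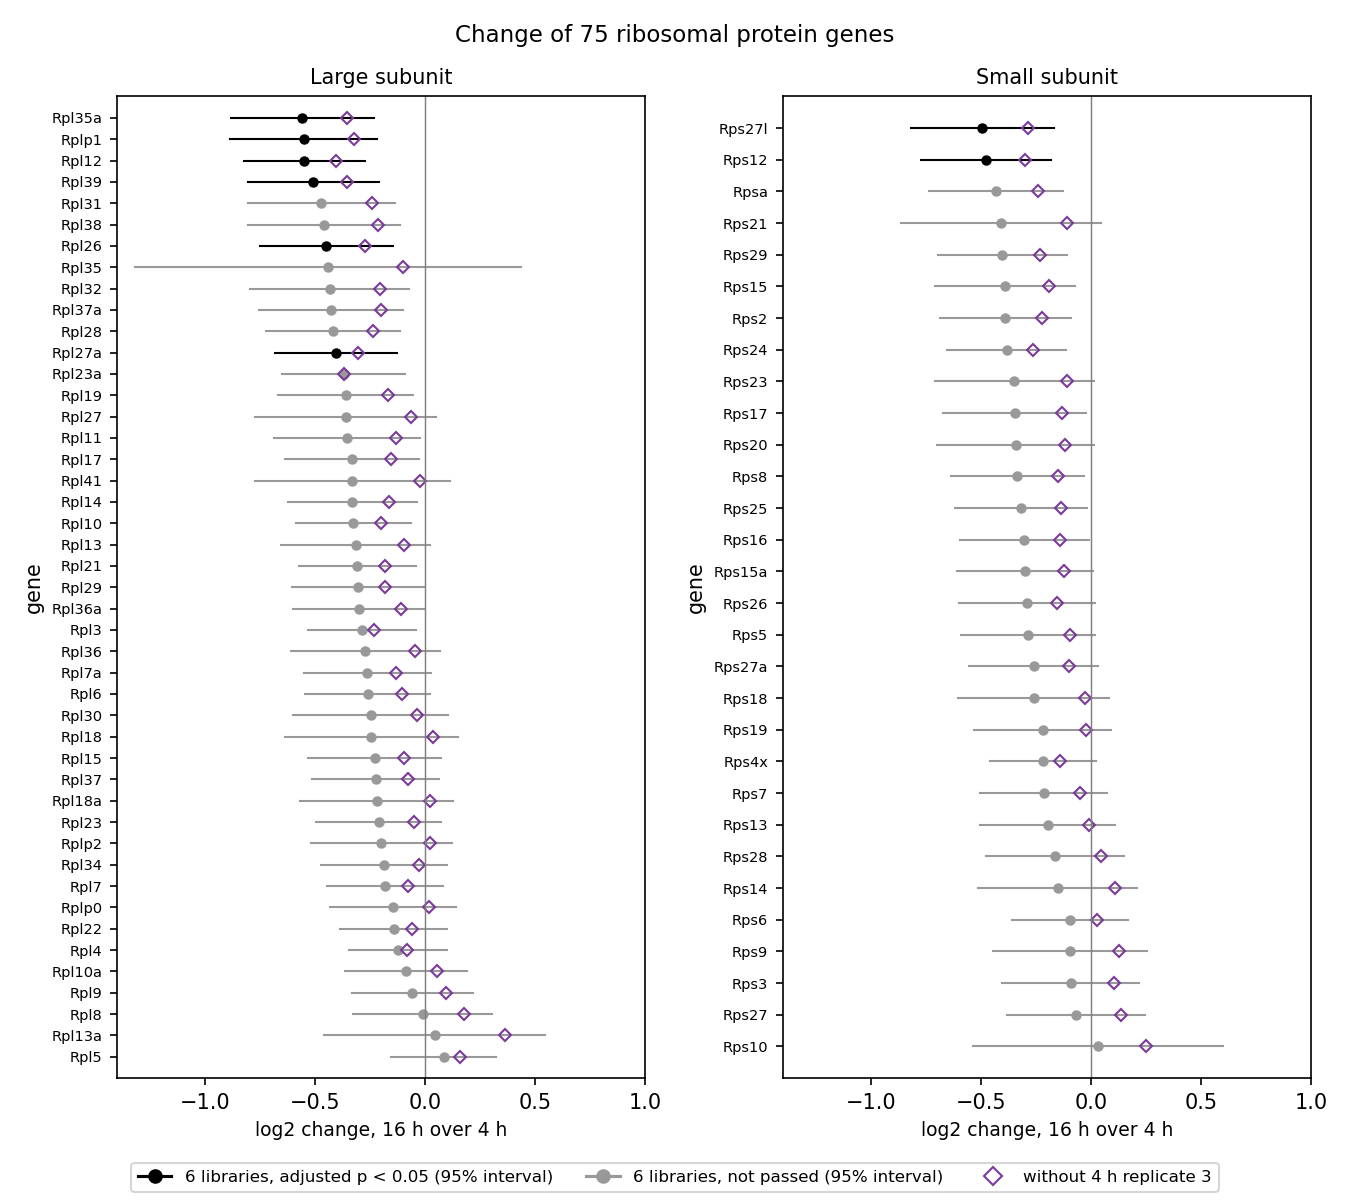
Log2 change, 16 h over 4 h, of 75 of the 76 tested ribosomal protein genes (circle) with its 95% interval, large subunit on the left and small on the right, and black where the adjusted p was under 0.05. Diamonds give the change without 4 h replicate 3, where the median over all 76 is -0.11 in place of -0.30.

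The stalk of the large subunit, made of Rplp0 and pairs of Rplp1 and Rplp2, recruits the elongation factors. Rplp1 had 233, 236 and 239 CPM after 16 h, against 306, 289 and 443 CPM after 4 h. The 16 h values were close together and lay below each 4 h value, and it fell (-0.55 ± 0.15 on the log2 scale, ± SE as in all changes below, edgeR adjusted p = 0.0276, and -0.32 with adjusted p = 0.0168 without 4 h replicate 3). Rplp0, the anchor of the stalk, had 364, 393 and 374 CPM after 16 h, against 381, 369 and 503 CPM after 4 h. Its groups overlapped, and the change of -0.15 ± 0.13 did not pass (edgeR adjusted p = 0.463, interval -0.44 to 0.14). Rplp2 had 94.1, 95.7 and 96.2 CPM after 16 h, against 97.2, 92.1 and 139 CPM after 4 h. The single high value was that of 4 h replicate 3, and the change of -0.20 ± 0.15 did not pass (edgeR adjusted p = 0.368). Without that library the changes of Rplp0 and Rplp2 were 0.018 and 0.021. Rpl12, which sits at the base of the stalk, had 138, 153 and 134 CPM after 16 h, against 189, 189.7 and 244 CPM after 4 h. No values overlapped, and it fell by 0.55 ± 0.13 (edgeR adjusted p = 0.0116, and -0.41 with adjusted p = 0.00619 without 4 h replicate 3). Whether Rplp1 changed differently from Rplp0 and Rplp2 was not tested.

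The other large-subunit members called lower were Rpl35a, Rpl39, Rpl26 and Rpl27a. Rpl35a, mutated in some cases of the human anaemia named after Diamond and Blackfan, had 109.6, 123 and 102 CPM after 16 h, against 147, 141 and 205 CPM after 4 h. Its groups did not overlap, and it had the largest fall of all members tested (-0.56 ± 0.15, edgeR adjusted p = 0.0232, and -0.36 with adjusted p = 0.0179 without 4 h replicate 3). Rpl39, a very small protein of the exit tunnel, had 52.7, 49.8 and 54.5 CPM after 16 h, against 74.6, 60.2 and 88.9 CPM after 4 h. All 16 h values were below the lowest 4 h value, which was that of replicate 2, and it fell (-0.51 ± 0.14, edgeR adjusted p = 0.0236, and -0.36 without 4 h replicate 3). Rpl26, at the outer end of that tunnel, had 117, 135 and 124 CPM after 16 h, against 147, 158 and 208 CPM after 4 h. Here too the groups did not overlap, and it fell (-0.45 ± 0.14, edgeR adjusted p = 0.042, and -0.27 without 4 h replicate 3). Rpl27a had 139, 174 and 148 CPM after 16 h, against 182, 200.1 and 229 CPM after 4 h. The groups were close, 16 h replicate 2 against 4 h replicate 1, and it fell (-0.41 ± 0.13, edgeR adjusted p = 0.0435, and -0.30 without 4 h replicate 3).

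In GENCODE M21, build GRCm38, these genes of the large subunit lie at chr9:61913284-61914542 (Rplp1), chr2:32961559-32965345 (Rpl12), chr16:33056453-33060189 (Rpl35a), chrX:37082520-37085402 (Rpl39), chr11:68901583-68906989 (Rpl26) and chr7:109519147-109522367 (Rpl27a). The called genes of the small subunit lie at chr9:66946086-66949516 (Rps27l) and chr10:23785183-23787275 (Rps12). None of the 8 shares coding bases with another annotated gene.

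In the small subunit the 2 called genes were Rps27l and Rps12. Rps27l is a close relative of Rps27, and both proteins can fill the same place in the small subunit. It had 88.5, 95.6 and 95.99 CPM after 16 h, against 123, 106 and 165 CPM after 4 h, with no overlap, and it fell (-0.49 ± 0.15, edgeR adjusted p = 0.039, and -0.29 with adjusted p = 0.0425 without 4 h replicate 3). Rps27 had 91.3, 90.4 and 84.8 CPM after 16 h, against 83.99, 78.6 and 117 CPM after 4 h. Its groups overlapped, the change of -0.07 ± 0.14 did not pass (edgeR adjusted p = 0.776, interval -0.38 to 0.25), and it was 0.14 without 4 h replicate 3. The difference between the paralogues was not tested. Rps12, a protein of the small subunit's beak, had 118, 132 and 127 CPM after 16 h, against 156, 155 and 212 CPM after 4 h. The groups did not overlap, and it fell (-0.48 ± 0.14, edgeR adjusted p = 0.0306, and -0.30 without 4 h replicate 3).

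**Figure D3:**
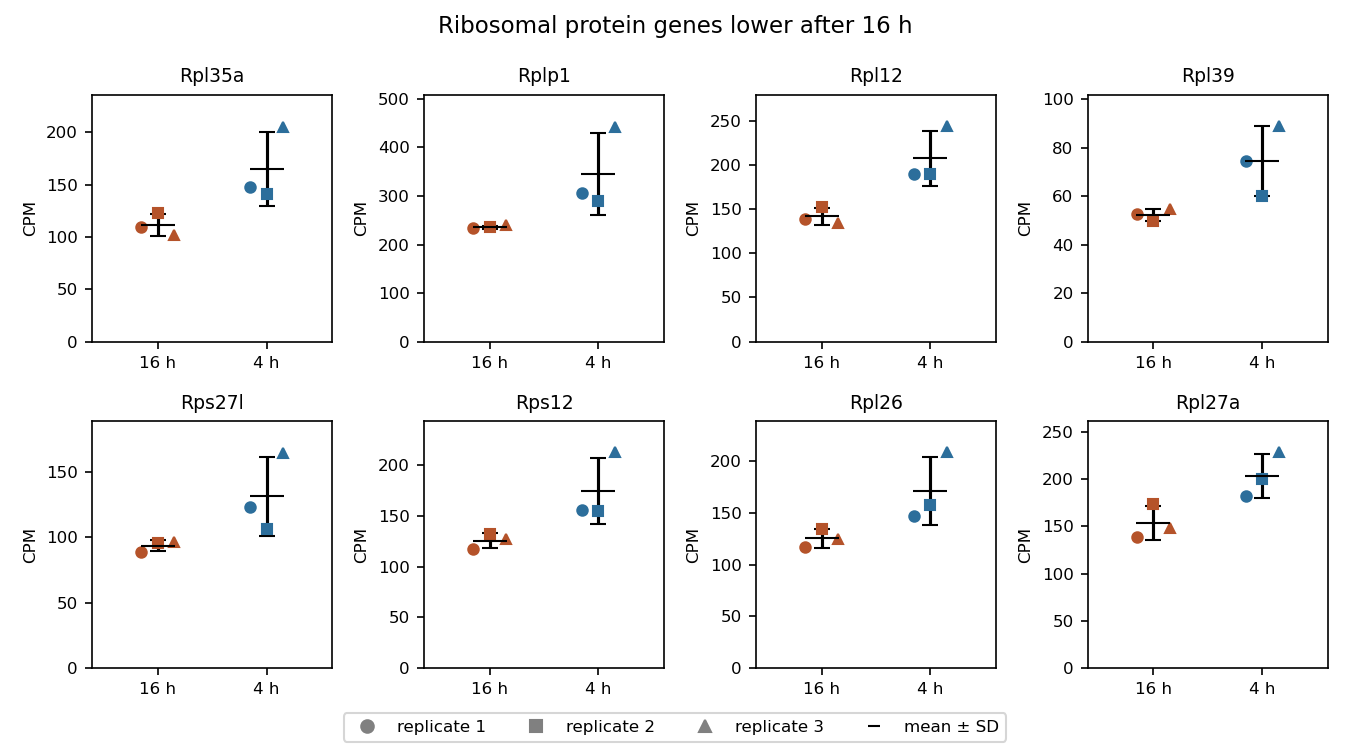
CPM in each library (scaled library sizes) for the 8 ribosomal protein genes called lower after 16 h, 16 h (orange) left of 4 h (blue), with the mean and SD of 3 mice as a black bar. In each panel the 16 h values lie below the 4 h values, and the triangle of 4 h replicate 3 is the highest.

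Other members of known function did not pass. Rpl5 and Rpl11 join 5S ribosomal RNA before entering the large subunit, and when ribosome assembly fails they bind the p53 regulator Mdm2. Rpl5 had 237, 267 and 243 CPM after 16 h, against 228, 222 and 256 CPM after 4 h, overlapping values and the largest positive change of the members, 0.08 ± 0.11 (edgeR adjusted p = 0.628, interval -0.16 to 0.32). Rpl11 had 194, 201 and 206 CPM after 16 h, against 230.0, 212 and 327 CPM after 4 h. Its groups did not overlap, but with edgeR adjusted p = 0.122 the change of -0.36 ± 0.15 did not pass, and it was -0.13 without 4 h replicate 3. Rpl10, which completes the large subunit late, had 340.4, 366 and 354 CPM after 16 h, against 412, 407 and 511 CPM after 4 h. The groups did not overlap, and the change of -0.33 ± 0.12 did not pass (edgeR adjusted p = 0.0778, and -0.20 without 4 h replicate 3). Rpl3, at the catalytic centre, had 237, 203 and 244 CPM after 16 h, against 275, 266 and 295 CPM after 4 h, groups without overlap and a change of -0.29 ± 0.11 (edgeR adjusted p = 0.097, and -0.23 without 4 h replicate 3). Rpl8, also near that centre, had near-equal means, 276 ± 20.9 CPM after 16 h and 278 ± 57.4 CPM after 4 h (SD, n = 3 each), a change of -0.01 ± 0.14 with an interval of -0.33 to 0.30, and 0.17 without 4 h replicate 3. Rpl22 had 95.7, 109 and 95.8 CPM after 16 h, against 103, 107 and 122 CPM after 4 h, and its change of -0.14 ± 0.11 did not pass (edgeR adjusted p = 0.389, and -0.059 without 4 h replicate 3).

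In the small subunit, Rps6, the ribosomal protein that S6 kinases phosphorylate downstream of mTORC1, had 191, 218 and 200.1 CPM after 16 h, against 198, 204 and 249 CPM after 4 h. The groups overlapped, the change was -0.10 ± 0.12 (edgeR adjusted p = 0.613, interval -0.36 to 0.17, and 0.028 without 4 h replicate 3), and messenger counts do not show its phosphorylation. Rps3, at the messenger entry channel, had 248, 260.3 and 263 CPM after 16 h, against 254, 228 and 339 CPM after 4 h, again with overlap and a change of -0.09 ± 0.14 (edgeR adjusted p = 0.693, and 0.10 without 4 h replicate 3). Rps2, also near that channel and the small-subunit member with the highest counts, had 541, 589.9 and 599.6 CPM after 16 h, against 654, 702 and 909.7 CPM after 4 h. These groups did not overlap, and the change of -0.39 ± 0.14 did not pass (edgeR adjusted p = 0.0664, and -0.22 without 4 h replicate 3). Rpsa, also known as a laminin receptor, had 293, 304 and 311 CPM after 16 h, against 358, 362 and 504 CPM after 4 h. It missed the threshold most narrowly of all members (-0.43 ± 0.14, edgeR adjusted p = 0.0507), and its groups did not overlap. Without 4 h replicate 3 its change was -0.24. Rps19, mutated in Diamond-Blackfan anaemia, had 98.7, 104 and 107 CPM after 16 h, against 111, 99.6 and 149 CPM after 4 h. Only 4 h replicates 1 and 3 were above all 16 h libraries, and its change was -0.22 ± 0.14 (edgeR adjusted p = 0.307, and -0.023 without 4 h replicate 3). The X-linked Rps4x had 209, 241 and 228 CPM after 16 h, against 250.1, 251 and 286 CPM after 4 h, without overlap, and a change of -0.22 ± 0.11 (edgeR adjusted p = 0.194, and -0.14 without 4 h replicate 3). Rps27a, made as a fusion with ubiquitin, had 137, 136 and 146 CPM after 16 h, against 161, 140.1 and 201 CPM after 4 h. Its groups overlapped, and its change was -0.26 ± 0.13 (edgeR adjusted p = 0.196, and -0.098 without 4 h replicate 3).

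Outside the rule for genes to be named, set out with the processing, were 48 tested members, among them Rpl31, Rpl4, Rpl23a and Rpl35. Their median log2 change was -0.30, and -0.11 without 4 h replicate 3. The rule names every called member and the largest rises of each subunit, which cover all members above 0. That none of the 48 passed and all were below 0 was therefore fixed by the choice. Without 4 h replicate 3, 41 of the 48 were below 0. The groups did not overlap in 19 of the 48, each with 16 h lower, beside 2722 of all 13812 genes (19.7%). The lowest adjusted p of the 48 belonged to Rpl31, which had 125, 129.8 and 127 CPM after 16 h, against 159, 144 and 225 CPM after 4 h. Its change was -0.47 ± 0.15 (edgeR adjusted p = 0.0515, and -0.24 without 4 h replicate 3). Rpl4, the large-subunit member with the highest counts, had 439, 463 and 456 CPM after 16 h, against 484, 484 and 511 CPM after 4 h. The groups did not overlap although the change was small, -0.12 ± 0.10 (edgeR adjusted p = 0.425, and -0.085 without 4 h replicate 3). Among all tested members, the groups did not overlap in the 8 that fell and in 25 that did not pass.

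Levels were compared between genes only per length, as RPKM computed from the counts and the coding length. Among the 72 tested members with under 15% of their coding bases shared with another annotated gene, the median level was 329.7 after 16 h and 393 after 4 h, with quartiles of 274 and 374 after 16 h and of 329 and 472 after 4 h. The order of levels differed little, with Spearman correlations of 0.886 to 0.978 across the members in 15 pairs of libraries, a description only. Rpl41, with 75 coding bases the shortest member, had 1646 after 16 h and 2073 after 4 h on this scale, the highest values, and since reads over its untranslated parts count too, the level of so short a coding sequence is overstated. The same bias touches other members to differing degrees, such as Rps20 with 357 coding of 3706 transcript bases. The order of genes by level is therefore approximate. Next came Rplp1 with 690.0 after 16 h and 1012 after 4 h, and Rps2 with 656 and 859. Rpl41 itself had 124, 114 and 132 CPM after 16 h, against 139.9, 113 and 213 CPM after 4 h, and its change of -0.33 ± 0.20 did not pass (edgeR adjusted p = 0.272, and -0.026 without 4 h replicate 3).

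The lowest levels belonged to genes that share coding bases with another annotated gene. Reads that fall in more than 1 gene are tallied apart and not assigned, so these levels are not taken as a measure of the transcript. Rps10 had 4.51 RPKM after 16 h and 4.399 RPKM after 4 h, with 92.1% of its coding bases under the RPS10-NUDT3 model and another. Rpl13a had 9.08 after 16 h and 8.84 after 4 h with 97.5% shared, Rpl23a 21.6 after 16 h and 27.98 after 4 h with 55.3%, and Rpl35 64.03 after 16 h and 87.2 after 4 h with 28.5%. Rpl23a and Rpl35 overlap only genes on the other strand, so whether they lost reads depends on the unstated strand setting. The 4 are the lowest of the tested members in both fasts. In counts, Rps10 had 1.999, 2.65 and 2.06 CPM after 16 h, against 1.84, 1.93 and 2.76 CPM after 4 h, and Rpl13a had 5.55, 4.996 and 6.05 CPM after 16 h, against 4.59, 4.05 and 7.51 CPM after 4 h. Their changes, 0.03 ± 0.26 and 0.04 ± 0.23, did not pass (edgeR adjusted p = 0.949 and 0.921). Over the 72 genes without such overlap the median change was -0.30, and -0.11 without 4 h replicate 3.

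**Figure D4:**
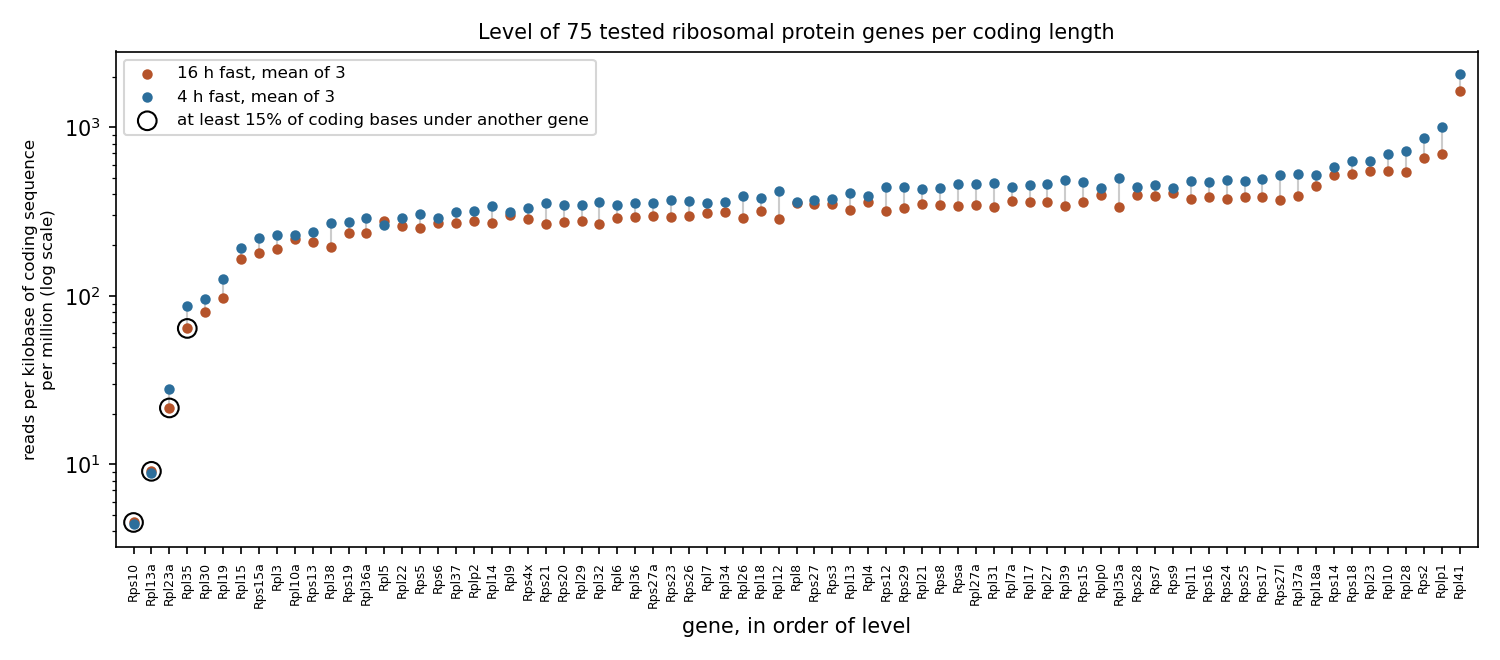
Mean level of 75 of the 76 tested ribosomal protein genes after 16 h (orange) and 4 h (blue), 3 mice each, as RPKM over the coding length on a log axis, with genes in order of level. Rings mark the 4 genes with at least 15% of their coding bases under another gene, which are the 4 lowest, and Rpl41 is the highest.

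The 4 members without enough counts for a test are 3 paralogues and Rpl24. Rpl24, an ordinary member of the large subunit, had 21 counts in the 16 h libraries and 38 in the 4 h libraries, and 83.4% of its coding bases lie under the Gm28037 model, so its low count says little about the gene. Rpl3l, known from heart and skeletal muscle, had 11 counts in the 16 h libraries and 11 in the 4 h libraries. Rpl39l, known from testis, had 0 and 2, and Rpl10l, also known from testis, had 0 counts in all 6 libraries, which allows a level of up to 0.0239 CPM over all 6 (3 counts, counting error only). Rps4l, Rpl6l and Rpl32l carry member-like symbols but are annotated as pseudogenes and were not counted as members. Processed copies of ribosomal protein genes are common in the mouse genome. The annotation holds 291 pseudogenes named after members, 160 of which had counts, and together they came to 0.373% of the members' own counts. How reads that fit such copies were treated is not stated in the labels, so members with near-identical copies, such as Rps12 (23 such pseudogenes) and Rpl31 (24), are uncertain in level.

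Genes close to the members but outside the naming rule were looked at as well, 9 in all. None rose or fell and 9 did not pass, with a median of -0.15, and without 4 h replicate 3 Fau alone rose (0.29, edgeR adjusted p = 0.0497). Rps3a1, the most abundant of them and a true small-subunit protein, had 302, 309 and 307 CPM after 16 h, against 330.4, 306 and 381 CPM after 4 h. Its groups overlapped and its change was -0.15 ± 0.11 (edgeR adjusted p = 0.378). Rpl22l1, the paralogue of Rpl22, was at -0.33 ± 0.15 with 33.9% of its coding bases under another gene, and Rpl7l1 at 0.08 ± 0.10 (edgeR adjusted p = 0.154 and 0.612).

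Other transcripts with a TOP start had changes on both sides of 0. Of 14 such genes, mostly translation factors, 2 rose, 0 fell and 12 did not pass (14.3% higher, beside 9.18% of all genes called higher and 9.51% lower), with a median log2 change of 0.12. Nap1l1, a histone chaperone that also escorts ribosomal proteins, had 100.5, 104 and 94.8 CPM after 16 h, against 73.7, 69.3 and 72.1 CPM after 4 h. All 16 h values were above the 4 h values, and it rose by 0.48 ± 0.10 (edgeR adjusted p = 0.00695). Eef1a1, which brings transfer RNA to the ribosome and had the highest counts of the list, had 3538, 3948 and 3669 CPM after 16 h, against 3520.2, 3495 and 3278 CPM after 4 h. Its 16 h values lay just above its 4 h values, and the change of 0.12 ± 0.11 did not pass (edgeR adjusted p = 0.488). Eif4b was the other riser (0.39 ± 0.11, edgeR adjusted p = 0.0333), a call lost without any one 16 h library or 4 h replicate 2 (0.0893, 0.138, 0.068 and 0.0599). Without 4 h replicate 3, 4 of the 14 rose, beside 11.1% of all genes, and without 16 h replicate 1, 2 or 3 or 4 h replicate 2 it was 1. The difference between this list and the members was not tested.

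Among 24 genes that make up or control mTORC1 and TOP translation, 6 rose, 0 fell and 18 did not pass (25% higher, beside 9.18% of all genes), with a median of 0.12. Ddit4, an inhibitor of mTORC1 induced by stress and glucocorticoids, had 17.4, 37.4 and 35.1 CPM after 16 h, against 5.25, 8.62 and 10.5 CPM after 4 h. Every 16 h value exceeded every 4 h value, and the rise of 1.90 ± 0.36 (edgeR adjusted p = 0.0125) lost its call without 4 h replicate 2 or 3 (0.0793 and 0.0697), though it was then 1.97 and 2.16. Sesn2, which restrains mTORC1 when leucine is scarce, had 17.2, 16.01 and 19.1 CPM after 16 h, against 7.68, 7.21 and 7.09 CPM after 4 h. The groups were far apart, and it rose by 1.25 ± 0.13 (edgeR adjusted p = 0.000109). Eif4ebp3, a translation repressor held in check by mTORC1, rose by 1.66 ± 0.34 (edgeR adjusted p = 0.00721) with 66.01% of its coding bases under another gene. Rps6kb1, the S6 kinase, rose by 0.48 ± 0.11, Rptor, a subunit of mTORC1, by 0.40 ± 0.10, and Larp1, which binds the TOP start, by 0.35 ± 0.11 (edgeR adjusted p = 0.0127, 0.0175 and 0.0406). Rps6kb1 lost its call without 16 h replicate 2 (0.072), Rptor without 16 h replicate 1 or 3 (0.0711 and 0.076), and Larp1 in every fit that left out 1 library except 4 h replicate 3 (0.0761 to 0.121). Eif4ebp2, the most abundant of the list, did not pass (-0.18 ± 0.10, edgeR adjusted p = 0.252).

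Of 30 genes for ribosomal RNA synthesis and ribosome assembly, 5 rose, 0 fell and 25 did not pass (16.7% higher, beside 9.18% of all genes), with a median of 0.18. Polr1a, the large subunit of RNA polymerase I, had 30.04, 32.3 and 32.7 CPM after 16 h, against 20.1, 20.8 and 21.6 CPM after 4 h. Its groups did not overlap, and it rose by 0.60 ± 0.10 (edgeR adjusted p = 0.00245), a call kept in all 6 fits that left out 1 library. Ncl, nucleolin, the most abundant of the list, did not pass (0.29 ± 0.10, edgeR adjusted p = 0.07) but rose without 4 h replicate 3 (0.34, edgeR adjusted p = 0.0137). With any single 16 h library left out 1 of them rose, with 4 h replicate 1 left out 2, and with 4 h replicate 3 left out 9, beside 11.1% of all genes in that last fit. Of 8 tested chaperones of single ribosomal proteins, 2 rose, 0 fell and 6 did not pass (25% higher, beside 9.18% of all genes, median 0.15). They were Nap1l1 and Heatr3 (0.44 ± 0.12, edgeR adjusted p = 0.0252), which serves Rpl5, and Heatr3 lost its call in 3 fits, those lacking 16 h replicate 1, 16 h replicate 3 and 4 h replicate 2 (0.0936, 0.102 and 0.0537). The number that rose was 1 in each of those fits and 3 in the fit lacking 4 h replicate 3, beside 11.1% of all genes there.

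Mitochondrial ribosomal proteins, which build the separate ribosome of that organelle, gave the nearest comparison by size of list. Of 77 tested, 11 fell, 0 rose and 66 did not pass (14.3% lower, beside 9.51% of all genes), with a median of -0.20. Without 4 h replicate 3, 9 fell and 3 rose, beside 9.73% and 11.1% of all genes, with a median of -0.06, and without 16 h replicate 1, 2 or 3 the falls were 2, 3 and 3. Mrpl23 had 16.04, 16.1 and 17.2 CPM after 16 h, against 24.5, 25.6 and 35.8 CPM after 4 h. No values overlapped, and it had the largest fall of the list (-0.80 ± 0.15, edgeR adjusted p = 0.00384), which held in all 6 fits that left out 1 library. Mrpl12, the most abundant of the list, did not pass (0.12 ± 0.15, edgeR adjusted p = 0.62) and rose without 4 h replicate 3 (0.35, edgeR adjusted p = 0.0203).

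**Figure D5:**
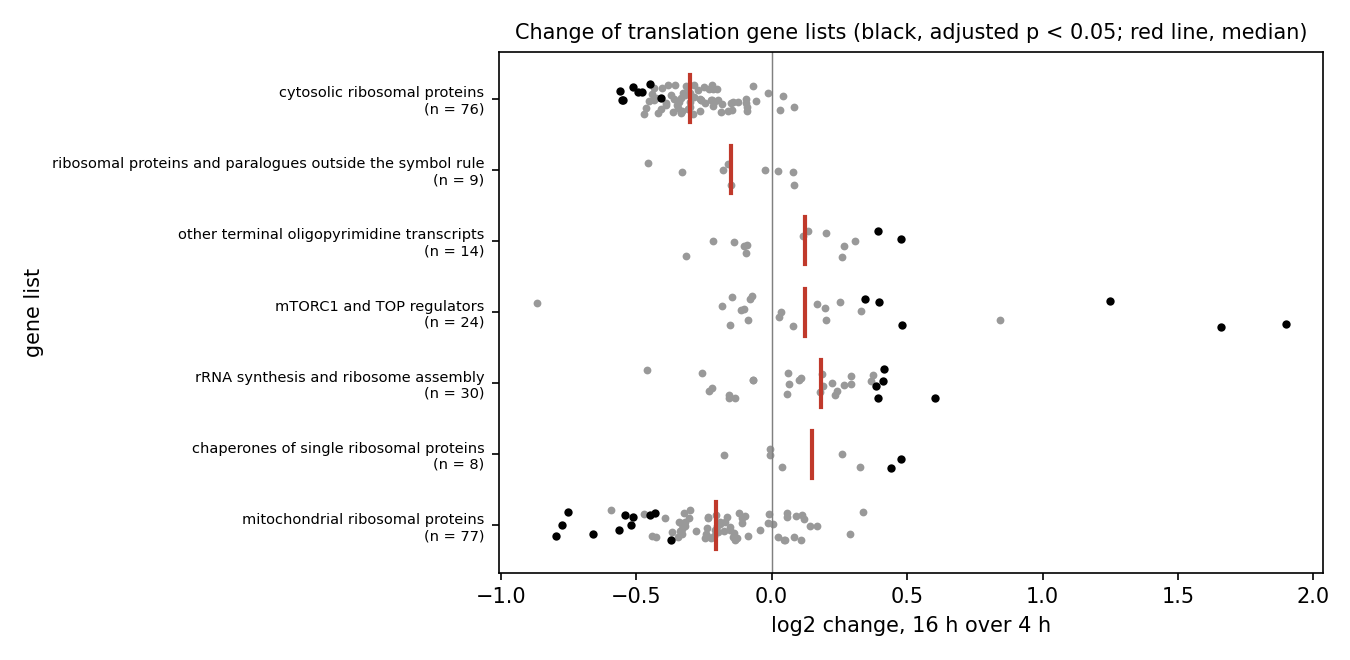
Log2 change, 16 h over 4 h, of each tested gene in the ribosomal protein list and 6 lists around it, with black points for genes past the adjusted p threshold and a red line at the median. The median is -0.30 for cytosolic and -0.20 for mitochondrial ribosomal proteins, -0.15 for related proteins outside the naming rule, and between 0.12 and 0.18 for the lists of other TOP transcripts, regulators, assembly factors and chaperones.

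Members with and without the pyrimidine run were set side by side. The 46 tested members with a run had a median log2 change of -0.32, the 10 with a window but no run had -0.20, and the 20 without a RefSeq window had -0.31. No difference between them was tested. Without 4 h replicate 3 these medians were -0.11, -0.06 and -0.14. The 80 members lie on 19 chromosomes, 14 of them on chromosome 7, and their coding sequences have a median of 454.5 bases.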

How the data were processed

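Liver RNA of 6 mice was sequenced, 3 fasted for 16 h and 3 for 4 h. The authors deposited raw read counts for each Ensembl gene. Per the submitters' processing notes, the authors used Trimmomatic, FastQC, STAR, HTSeq and DESeq2 with build GRCm38 (mm10). Versions, annotation release and strand setting are not stated there, so it is not known whether reads of a gene and its antisense partner were told apart. GENCODE M21 supplied symbols and lengths for 99.6% of the gene identifiers. Lines that name no gene, such as unassigned reads (6.44% to 7.14% of a tally outside genes), stayed out.

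The test was that of edgeR 4.0.16 under R 4.3.3, on genes kept by filterByExpr (TMM scaling, robust quasi-likelihood fit with the fast as its only term, 2-sided), and p-values were adjusted over all tested genes. SE and intervals come from that fit. CPM of single genes and of summed markers use TMM-scaled sizes, and summed levels of the members use plain totals unless stated. The SE (median 0.14 among members) hold the spread between libraries as well as counting error, and floors cover counting error only. The design text gives 3 mice per fast, and each library was taken as 1 mouse. DESeq2 1.42.0 and the other alternatives are listed with their effect in the closing section. Tests were checked on simulated counts. Members and lists were chosen with earlier results of these data known. Named genes were structural or paralogous members, the largest changes, the smallest p, the extreme levels, called and untested members, and the largest or most abundant of each list. RPKM were computed here from coding lengths. Genes outside that rule (Rpl31, Rpl4, Rpl23a, Rpl35, Rps7, Fau, Eif4b, Heatr3, and the smaller rises among the regulators) were picked after their values were seen. Values of 2 genes that the rule names are not reported here.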

Additional observations from a re-analysis of the deposited data

How the results depend on the processing

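No setting called a ribosomal protein gene higher. The number called lower, 8, was 8 with RLE scaling and without robust moderation, 19 with upper-quartile scaling, 17 with plain totals, 20 without a filter on low counts, 17 with DESeq2 and 7 with length and GC offsets. Among all genes, 1313 were called lower in the main fit, 1285 with RLE scaling and 1294 without robust moderation. That number was 1596 with upper-quartile scaling, 1377 with plain totals, 1555 without the filter, 1351 with DESeq2 and 1526 with offsets. Leaving out single libraries gave 0 to 18, and over all genes 671 to 1594 called higher and 696 to 1393 lower. The median stayed negative in every setting run, at -0.37 to -0.11 with single libraries left out (large subunit -0.36 to -0.11), and the summed ratio on plain totals lay between 0.775 and 0.892. With TMM-scaled sizes it was 0.823, and 0.920 without 4 h replicate 3. Replicate numbers recur in both fasts. Deviations of same-numbered libraries correlated at 0.104, 0.0955 and 0.0612, which does not show that they pair, although each library correlated best with its own number. With the replicate block 15 members were lower, all 8 among them, and with the block and offsets together it was 5. The shares of all genes in the block fits are not given here. Rpl8 had a sign change in the block fit (0.0037), without a filter (0.014), and with offsets or block and offsets (0.18 in both). Rps6 (0.067 and 0.065) and Rps27 (0.16 in both) turned positive with offsets and with block and offsets, and upper-quartile scaling turned Rpl13a (-0.0075) and Rps10 (-0.018). With offsets, members outside the naming rule turned positive too. They were Rpl34 (0.024), Rpl10a (0.11), Rpl9 (0.12), Rps13 (0.0077), Rps28 (0.080), Rps14 (0.068) and Rps9 (0.096). With single libraries left out, changes were -0.11 to 0.17 for Rpl8, -0.21 to 0.018 for Rplp0, -0.29 to 0.021 for Rplp2, -0.15 to 0.028 for Rps6, -0.18 to 0.10 for Rps3, -0.15 to 0.14 for Rps27, -0.090 to 0.36 for Rpl13a and -0.095 to 0.25 for Rps10. None of these 8 genes passed the test. The causes were not tested. With 3 mice per fast, changes near the SE of the members cannot be detected.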
